A study of Rattus norvegicus with 4 samples.

Results

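The spots described here are those of rat trigeminal nerve tissue with the most RNA of C1qa, C1qb, C1qc and Cd68, genes that mark macrophages and microglia. They were chosen among the 6623 of 6773 spots with 2000 or more unique molecular identifiers (UMIs, each counting 1 captured RNA molecule). In each capture area, the 8% of spots with the highest summed CPM of these 4 genes (CPM are UMIs of a gene per 1000000 UMIs of the spot or sum) were kept, which gave 529 macrophage-rich spots and left 6094 others. TN1 gave 126 of them, TN2 99, TN3 144 and HC 160. The spots were thus chosen by measured values of the 4 genes, and those values are given as a description, with no test.

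The tissue came from wild type adult male Sprague–Dawley rats, in a model of trigeminal neuralgia (TN) made by compressing the trigeminal root on one side. Root, semilunar ganglion and proximal branches of the diseased side filled 3 Visium capture areas, TN1, TN2 and TN3, with 1 animal in each. The healthy control (HC) area held the healthy side of 2 animals, and the barcodes do not tell these apart. The series description takes the 2 HC animals from the TN animals, while the methods call the controls sham-operated. HC is thus 1 sample whose spread is borrowed from the TN areas. Condition and capture area cannot be told apart. Sections were 10 µm thick, and a spot can hold several cells of different types. TN1 held 23546025 UMIs, TN2 38769935, TN3 32239597 and HC 41335930.

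C1qa, C1qb and C1qc encode the chains of C1q, the protein that starts the classical complement pathway, and in nervous tissue they are made mainly by microglia and macrophages. Cd68 encodes a glycoprotein of their lysosomes. Microglia are the resident phagocytes of the brain and brainstem, and they extend into the central part of a nerve root, where oligodendrocytes make the myelin. Macrophages fill that role in the ganglion and in the peripheral nerve, where Schwann cells make the myelin, and they clear myelin debris after injury. Both lineages depend on the receptor Csf1r and on the transcription factor PU.1, the product of Spi1. A central spot is here one with more CPM of the oligodendrocyte genes Mobp and Mog than of the Schwann cell genes Prx, Egr2 and Drp2, and a peripheral spot is the reverse.

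The summed CPM of the 4 genes had a median per macrophage-rich spot of 1067 in TN1, 2064 in TN2 and 3130 in TN3, and 966 in HC. In the other spots of the same areas the medians were 197, 517, 651 and 113. The choice was made within each area, so the lowest chosen spot stood at 812 CPM in TN1, 1614 in TN2 and 2476 in TN3, and 634 in HC, and the highest spot left out at 810, 1609, 2469 and 631. A chosen spot of HC would therefore not have been chosen in TN3 unless it lay far above its own threshold. The choice rested on few molecules in TN1 and HC. The median chosen spot held 8 UMIs of the 4 genes in TN1 and 11 in HC, against 42 in TN2 and 67 in TN3.

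The 3 C1q genes carried most of the choice. C1qa stood at 493 CPM in TN1, 793 in TN2 and 1252 in TN3, and 473 in HC over the macrophage-rich spots, and at 86.6, 204, 288 and 48.8 CPM over the others. Cd68 stood at 47.1, 242, 315 and 7.74 CPM in the same order, and at 9.69, 77.4, 96.6 and 4.15 CPM over the others. The level of Cd68 thus lay far lower in HC and TN1 than in TN2 and TN3, and a ranking without Cd68 kept 95.5% of the spots. When the UMIs of each spot were split at random and only 1 part was used for the choice, C1qa in the other part was 4.07 times as high in the chosen spots of TN1 as in the rest, and 3.49, 4.13 and 7.60 times in TN2, TN3 and HC.

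The macrophage-rich spots of HC, TN1 and TN2 lay more often in central tissue than the other spots of their area, by an amount that differed widely. In HC 91.9% of them were central (95% exact binomial interval 86.5 to 95.6, which covers counting error only), against 34.2% of the others. The shares were 63.5% (54.4 to 71.9) against 50.2% in TN1, 52.5% (42.2 to 62.7) against 25.9% in TN2, and 25% (18.2 to 32.9) against 22.3% in TN3. In TN3 alone, the share of the other spots lay inside the interval of the macrophage-rich ones, and with the stricter split TN3 turned round, with 20 of 144 macrophage-rich and 287 of 1657 other spots central. That split asks for 2 or more UMIs of a spot's own markers and at least 3 times the CPM of the other markers. The peripheral macrophage-rich spots numbered 43 in TN1, 45 in TN2 and 98 in TN3, and 8 in HC.

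Depth moved with these shares. The median macrophage-rich spot held 6331 UMIs in TN1, 19130 in TN2 and 20548 in TN3, and 10516 in HC, against 9918, 31613, 14709 and 15369 in the other spots, so it was shallower in 3 of the 4 areas. Central spots were also shallower than peripheral ones, with medians of 9565 against 24041 UMIs in HC and 11172 against 36802 in TN2. Ranked on counts thinned to 2000 UMIs per spot, 58.6% of the macrophage-rich spots were chosen again. The central share then was 81.9% in HC and 35.4% in TN2, and it changed little in TN1 (62.7%) and TN3 (26.4%). In TN2 35 of 99 macrophage-rich and 312 of 1141 other spots were then central, so the gap between the classes narrowed there.

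**Figure D1:**
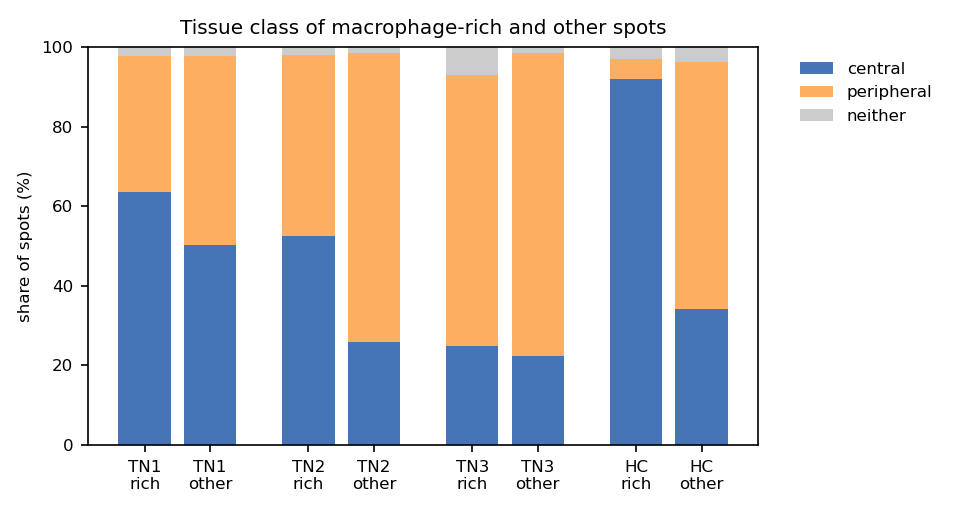
Share of spots (%, vertical axis) that were central, peripheral or neither, among the macrophage-rich and the other spots of each capture area. The central share of the macrophage-rich spots runs from 25% in TN3 to 91.9% in HC.

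The macrophage-rich spots carried the wider program of myeloid cells, and not only the genes that chose them. Of 22 tested genes of a pan-myeloid list, 21 were higher in the macrophage-rich spots and 0 lower, with a median log2 fold change of 1.66 against -0.01 over all genes tested. The test was edgeR's quasi-likelihood test on UMIs summed per area and class of spot, with the capture area as a block (4 pairs) and Benjamini-Hochberg adjustment over 13307 genes. At an adjusted p under 0.05 it called 17.9% of all genes, 6.65% of them higher and 11.2% lower. The pan-myeloid count was between 18 and 21 with any 1 area left out. All 22 matched pan-myeloid genes passed the filter on low counts. In the other lists a scarce gene can pass it through the class where it is high, so their counts describe the members tested and not every member.

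Csf1r, the receptor on which macrophages and microglia depend, stood at 284 CPM in TN1, 280 in TN2 and 375 in TN3, and 270 in HC over the macrophage-rich spots, and at 75.7, 98.3, 115 and 44.7 CPM over the others. The lowest macrophage-rich value lay above the highest of the others, and the log2 fold change was 1.95 ± 0.21 (SE, n = 4 areas, edgeR adjusted p = 0.000707). Tyrobp, the adaptor through which Trem2 and other myeloid receptors signal, stood at 244, 591, 896 and 247 CPM against 73.2, 184, 245 and 46.6 (log2 fold change 1.95 ± 0.17, edgeR adjusted p = 0.000599). Tyrobp was higher in each of the 4 pairs, although its level in the other spots of TN3 reached that of the macrophage-rich spots of TN1. Itgb2, the shared chain of the leukocyte integrins, stood at 16.3, 44.4, 57.1 and 28.7 CPM against 4.93, 11.2, 15.8 and 3.80 (2.14 ± 0.23, edgeR adjusted p = 0.000761), so its classes did not overlap.

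Ctss, a lysosomal protease that readies antigens for MHC class II, was highest in TN1. Its level in the macrophage-rich spots was 239 CPM in TN1, 105 in TN2 and 64.6 in TN3, and 130 in HC, and in the others 58.6, 22.4, 16.9 and 8.65 CPM. The classes did not overlap (2.52 ± 0.33, edgeR adjusted p = 0.00156), and each pair was higher in the macrophage-rich spots. Lyz2, the lysozyme of macrophages and monocytes, ranged widely over areas, with 632, 2195, 2001 and 156 CPM against 235, 914, 857 and 84.0 (1.23 ± 0.13, edgeR adjusted p = 0.000707). It was higher in all 4 pairs, but the macrophage-rich spots of HC lay below the other spots of every TN area.

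Fc receptors, which bind antibody, were higher in 4 of 4 tested genes, Fcgrt, Fcgr1a, Fcgr2a and Fcgr2b. Fcgrt, the most abundant, was not higher in HC, with 126 of 1809166 UMIs against 3001 of 39524138 in the other spots. Fcgr2b, the inhibitory member of the family, stood at 25, 31.6, 38.6 and 30.4 CPM in TN1, TN2, TN3 and HC against 4.67, 6.81, 8.63 and 2.28 in the other spots. Its level was nearly even over the 4 areas in the macrophage-rich spots, with no overlap between classes (2.61 ± 0.29, edgeR adjusted p = 0.000869). Fcgr3a, an activating member of the family counted on the pan-myeloid list, stood at 17.3, 21.3, 34.5 and 21.0 CPM against 4.67, 6.26, 7.60 and 2.63 (2.22 ± 0.25, edgeR adjusted p = 0.00085). Blnk, an adaptor known from B cells that myeloid cells also express, was higher by 2.26 ± 0.19, while 5 of 7 matched genes of the B and plasma cell list (among them Ms4a1, Pax5 and Jchain) had 0 UMIs in all macrophage-rich spots.

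**Figure D2:**
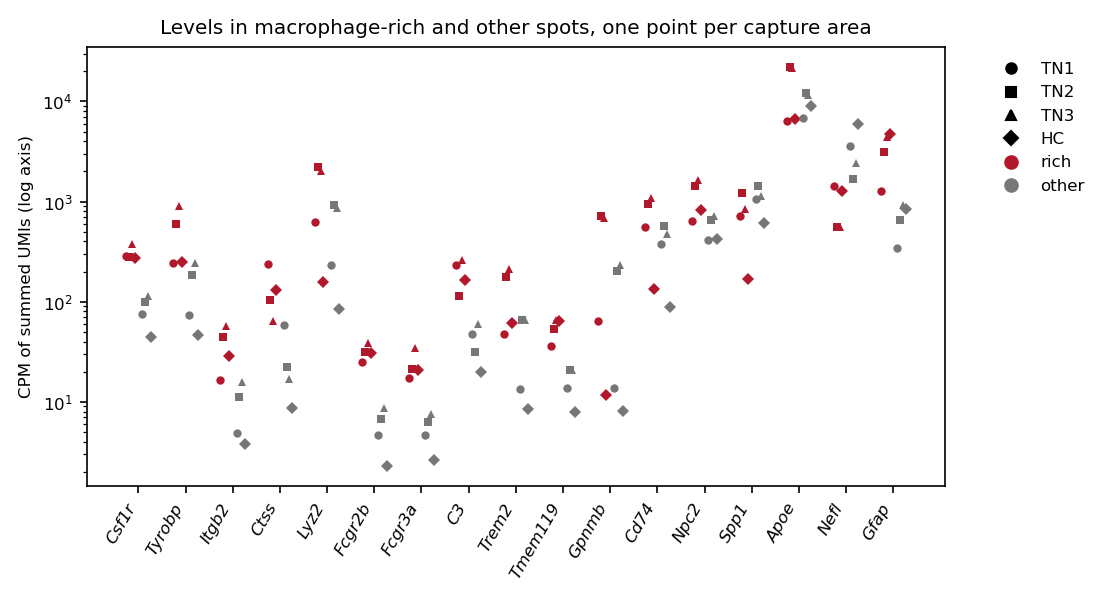
CPM of summed UMIs (log axis) of 17 genes in the macrophage-rich spots (red) and the other spots (grey), with 1 point per capture area. Csf1r, Fcgr2b and Ctss do not overlap between the classes, whereas Spp1 and Nefl are lower in the macrophage-rich spots.

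Several of these genes share a short sequence next to their start sites, and it is shown because PU.1, the factor named above, is known to bind GAGGAAGT. Spi1 itself was higher in the macrophage-rich spots by 1.61. Of the 17 pan-myeloid genes that were higher both within central and within peripheral tissue (below), 10 had a promoter in RefSeq (GRCr8). GAGGAAGT, searched on both strands in the 250 bases before the start site, was found in 4 of these 10 and in 2.04% of all 33469 promoters. The shorter core GGAAGT, which is part of it, was found in 6 of the 10 and in 19.2% of all promoters. The rule genes C1qa, C1qb and Cd68 held GGAAGT and not GAGGAAGT. The 4 stretches read on the strand of the gene, 5′ to 3′, and the capitals mark the letters of GAGGAAGT as they read on the opposite strand.
Ctss (chr2:185775359-185775395, + strand): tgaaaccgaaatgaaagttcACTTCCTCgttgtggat
Cd53 (chr2:197087915-197087962, - strand): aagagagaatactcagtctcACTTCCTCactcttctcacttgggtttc
Cd37 (chr1:104860836-104860883, - strand): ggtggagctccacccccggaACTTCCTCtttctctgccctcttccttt
Fcgr3a (chr13:85782560-85782607, + strand): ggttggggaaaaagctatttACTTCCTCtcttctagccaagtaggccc
The letters begin 17 bases before the start site in Ctss, 46 in Cd53, 79 in Cd37 and 56 in Fcgr3a. A match describes the letters and is not a measured binding site.

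Of 14 matched microglia genes 12 were tested, of which 10 were higher and 0 lower, with a median log2 fold change of 1.90. Tmem119, a membrane protein found on microglia, stood at 36.5 CPM in TN1, 53.4 in TN2 and 64.9 in TN3, and 63.6 in HC, against 13.8, 20.8, 20.6 and 8 in the other spots. The classes did not overlap (1.88 ± 0.29, edgeR adjusted p = 0.00282). P2ry12 and Cx3cr1, receptors known from microglia, were called with folds of 2.23 and 2.00 on the log2 scale, at levels of 1.92 to 10.6 CPM that rest on few UMIs. Trem2, a lipid receptor of microglia and macrophages, stood at 47.1, 177, 211 and 60.8 CPM against 13.4, 65.2, 65.9 and 8.48 (1.93 ± 0.24, edgeR adjusted p = 0.00129). Siglech was at 0 UMIs in the macrophage-rich spots, and Rgs10 (-0.09 ± 0.15) and Olfml3 (0.10 ± 0.19) were not called.

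The list of tissue-resident macrophages was higher in 5 of 11 tested genes, with a median of 0.79. These were Lyve1, Pf4, Folr2, Clec10a and Siglec1. Pf4, a chemokine of resident macrophages and platelets, stood at 35.6, 189, 60.2 and 7.19 CPM in TN1, TN2, TN3 and HC against 13.3, 62.8, 26.2 and 3.82 (1.34 ± 0.14, edgeR adjusted p = 0.000707). It was higher in every pair, and TN2 lay above the other areas in both classes. Mrc1, the mannose receptor, stood at 21.1, 33.7, 24.3 and 4.42 CPM against 10.1, 18.3, 16.2 and 6.60, so its difference in HC ran the other way (0.61 ± 0.21, edgeR adjusted p = 0.08). Without TN2, 2 of the 11 genes were called.

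Complement genes beyond C1q were called higher in 8 of 14 tests and lower in 2. C3, the protein on which all complement routes meet, stood at 233, 114, 260 and 165 CPM in TN1, TN2, TN3 and HC against 47.4, 31.3, 59.5 and 19.8, with no overlap (2.35 ± 0.22, edgeR adjusted p = 0.000599). The receptors C3ar1 and C5ar1 were higher by 1.87 and 1.31. Cd55 and Cd59, membrane proteins that protect cells from complement, were lower, by -1.33 and -0.67. Cd55 was lower within peripheral tissue too (-1.13), and stood at -0.23 ± 0.32 within central tissue (edgeR adjusted p = 0.806). Without TN3, 5 of the 14 complement genes were called higher.

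Lysosomal genes were higher in 10 of 22 tests and lower in 0, with a smaller median of 0.51. Npc2, which carries cholesterol out of the lysosome, stood at 634, 1437, 1656 and 830 CPM against 409, 653, 710 and 418 in the other spots (1.02 ± 0.14, edgeR adjusted p = 0.00173). Grn, the progranulin precursor, was higher by 0.93. Psap (0.09 ± 0.18) and Ctsd (0.33 ± 0.21), which many cell types express strongly, were not called. MHC class II was called higher in 3 of 9 genes, Cd74, RT1-Da and RT1-Ba. Cd74, the invariant chain, stood at 551, 955, 1090 and 134 CPM against 381, 566, 472 and 89.5 (0.80 ± 0.14, edgeR adjusted p = 0.00455). It was higher in each pair, with HC below every TN area in both classes. Class I genes were called higher in 4 of 9, and this count was 1 without TN1, without TN2 or without TN3. The lysosome count was 5 without TN2.

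Chemokines and their receptors were higher in 8 of 17 tests, at low levels for the best known. Ccl3, a chemokine that activated microglia and macrophages release, stood at 0, 12, 8.20 and 1.11 CPM in TN1, TN2, TN3 and HC, and was called on these few UMIs (2.38 ± 0.46, edgeR adjusted p = 0.00785). Cxcl14 was the most abundant member, with 108, 931, 1577 and 71.9 CPM against 74.4, 340, 409 and 15.3, so TN2 and TN3 stood apart from TN1 and HC. The chemokine count was 2 without TN2 and 4 without TN1 or without TN3. Within central spots 0 of 12 were called (1.5% of all genes), and within peripheral spots 8 of 16 (18.5% of all genes). Of the cytokine and inflammatory mediator list 5 of 9 were higher (3 without TN2), among them Il18 by 1.73 and Tgfb1 by 1.06. Il1b had 0 UMIs in the macrophage-rich spots of TN1 and HC and stood at 2.99 and 2.73 CPM in TN2 and TN3. Il1a, Tnf, Il6, Il10 and Nos2 had 0 UMIs in the macrophage-rich spots of all 4 areas, sums of 1040279 to 2925419 UMIs, in which 0 UMIs allow up to 2.88 CPM in TN1, 1.28 in TN2 and 1.03 in TN3, and 1.66 in HC. Tnf, Il10 and Nos2 had 0 UMIs in the other spots of all 4 areas as well.

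Genes that phagocytes use after taking up lipid and debris were called higher in 6 of 20 tests and lower in 1. Gpnmb, a glycoprotein of lipid-laden phagocytes, stood at 63.4, 710, 683 and 11.6 CPM in TN1, TN2, TN3 and HC against 13.6, 203, 231 and 8.12 (1.61 ± 0.21, edgeR adjusted p = 0.0014). It was higher in each pair, but spanned far more between areas than between classes. Spp1, osteopontin, which neurons also express, was the lower one, with 711, 1216, 835 and 170 CPM against 1056, 1433, 1129 and 606 (-0.73 ± 0.21, edgeR adjusted p = 0.0468). Apoe, the lipid carrier of glia and macrophages, stood at 6332, 22054, 21574 and 6651 CPM against 6831, 12232, 11462 and 8969, higher in TN2 and TN3 and lower in TN1 and HC (0.33 ± 0.23, edgeR adjusted p = 0.359). Of the 20 genes, 3 were called higher without TN2, 4 without TN3 and 10 without HC.

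The largest rise by the naming rule was that of Dmrtc1c1, followed by Fcgr2b, Ctss and C3. Dmrtc1c1 was carried by TN2 and TN3, with 0.961 CPM in TN1, 21.3 in TN2 and 74.2 in TN3, and 0.553 in HC over the macrophage-rich spots against 0.0889, 3.35, 7.15 and 0.127 over the others (2.99 ± 0.24, edgeR adjusted p = 0.000599). Tgfbr1, a receptor for the signal that maintains microglia, stood at 64.4, 146, 190 and 78.5 CPM against 25.2, 59.6, 69.0 and 22.0 (1.51 ± 0.15, edgeR adjusted p = 0.000707).

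Markers of other cells moved with the macrophage-rich spots. All 12 genes of the sensory neuron list were lower (median -1.63), as they were with any 1 area left out. Their summed level was 8188, 5281, 3012 and 6365 CPM in TN1, TN2, TN3 and HC against 18533, 13596, 12372 and 26949 in the other spots, Uchl1 was the most abundant, and none was at 0. Nefl, a neurofilament, stood at 1416, 558, 552 and 1267 CPM against 3561, 1675, 2409 and 5995, and Scn11a, a sodium channel of pain-sensing neurons, fell by 1.99 on the log2 scale. Astrocyte genes were higher in 7 of 9 tests, with a summed level of 3780, 4691, 6646 and 8018 CPM against 2234, 1661, 1867 and 2347, Gfap as the most abundant and none at 0. Oligodendrocyte genes were higher in 7 of 10 (4 without TN1 or TN2, 10 without TN3), with summed levels of 2378, 1680, 883 and 5294 CPM against 1369, 924, 704 and 1194, Mag as the most abundant and none at 0. Fibroblast and sheath genes were higher in 5 of 12 (1 without TN1 or TN2, 2 without TN3), with summed levels of 9620, 21454, 21648 and 15585 CPM against 5517, 15873, 16694 and 5069, Apod as the most abundant and none at 0. Apod made up most of these sums. In HC the macrophage-rich spots had 26383 UMIs of Apod, 167 of Dcn, 788 of Col1a1 and 168 of Col3a1, of 1809166 in all. The other spots of HC had 136339, 9027, 32356 and 7611, of 39524138. Apod was thus higher in the macrophage-rich spots of HC, whereas Dcn, Col1a1 and Col3a1 were lower. In spots, fewer cells of a type and less RNA per cell cannot be told apart. What part the other cell types had in the differences over all spots was not tested, and the comparisons within central and within peripheral tissue are given next.

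Within central spots the myeloid genes were still higher. Of 10095 genes, 1.5% were called (1.11% higher, 0.386% lower). The pan-myeloid list gave 17 higher of 22 and 0 lower, with a median of 1.33 against 0.00 for all genes. It was between 12 and 15 with any 1 area left out, and 13 with spots ranked on thinned counts. With 16% of the spots kept instead of 8%, 0 of all genes were called in central tissue (edgeR). Oligodendrocyte genes gave 0 of 8 and the fibroblast and sheath list 0 of 12, with medians of 0.05 and 0.14. Gfap was the single astrocyte gene called of 9 (0.93 ± 0.22, edgeR adjusted p = 0.0484), and it was not called without TN1 or without HC. The summed level of the astrocyte list was nonetheless above that of the other central spots in each area, with 5680 against 4181 CPM in TN1, 10708 against 6328 in TN2, 11716 against 8799 in TN3 and 8154 against 6088 in HC.

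Csf1r in the central spots stood at 295 CPM in TN1, 486 in TN2 and 572 in TN3, and 278 in HC when macrophage-rich, and at 92.3, 105, 268 and 107 CPM when not (1.58 ± 0.19, edgeR adjusted p = 0.000832). All macrophage-rich values lay above all others. Fcgr2b, Apobec1, Clec7a, Golm1, Tlr7, Fcgr2a, Gpr84, Trem2, Ltc4s and Cd53 had the largest rises. Trem2 in the central spots stood at 36.9, 210, 240 and 62.2 CPM against 16.7, 43.4, 102 and 17.2 (1.66 ± 0.20, edgeR adjusted p = 0.000772), and Tlr7, a sensor of RNA, at 21.8, 28.1, 46.5 and 10.9 against 4.14, 4.15, 18.1 and 5.18 (1.79 ± 0.32, edgeR adjusted p = 0.011). Both were higher in each pair and overlapped between areas. Clec7a, a lectin of phagocytes, was higher by 1.86 ± 0.41 and rested on TN2 and TN3, with 3.36, 49.1, 48.8 and 1.73 CPM against 1.94, 5.46, 18.5 and 1.22.

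The sums of central spots held 430021 to 7737042 UMIs. The microglia list gave 3 of 11 (among them Tmem119 and Trem2; 1 without HC), the resident macrophage list 0 of 6, and the Fc receptor list 2 of 4. MHC class II gave 3 of 4, with 0 without TN3 and 0 with thinned counts. Lysosomal genes gave 5 of 21 (2 to 5 with 1 area left out) and phagocyte genes 4 of 17 (1 to 2). Among the genes lower in central spots were Bglap and Ibsp, genes of bone, by -1.38 and -2.04. Ibsp rested on 1, 2, 1 and 9 UMIs in the central macrophage-rich spots of TN1, TN2, TN3 and HC. Nefl was the single sensory neuron gene called of 12 (-1.06 ± 0.24, edgeR adjusted p = 0.0398), and 7 of 12 were called without TN2.

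Within peripheral spots the myeloid genes were higher too. HC had 8 peripheral macrophage-rich spots, under the minimum of 10, so the test used TN1, TN2 and TN3. It called 18.5% of 12104 genes (7.52% higher, 10.9% lower). The pan-myeloid list gave 21 of 22 higher with a median of 1.47 against -0.01 for all genes, 21 with any area left out and 20 with thinned counts. Csf1r in the peripheral spots stood at 262, 209 and 334 CPM in TN1, TN2 and TN3 against 66.5, 97.5 and 100 (1.56 ± 0.16, n = 3 areas, edgeR adjusted p = 9.35e-05), without overlap. Gpnmb in these spots stood at 126, 725 and 669 CPM against 14.6, 214 and 231 (1.97 ± 0.23, edgeR adjusted p = 0.000151), so the macrophage-rich spots of TN1 lay under the other spots of TN2 and TN3.

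The resident macrophage list gave 6 of 11 higher in peripheral tissue, the same number with any 1 area left out. Pf4 in the peripheral spots stood at 73.6, 223 and 67.0 CPM against 13.6, 67.9 and 27.1 (1.67 ± 0.18, edgeR adjusted p = 9.69e-05). Mrc1 stood there at 43.7, 40.4 and 28.9 CPM against 13.4, 20.2 and 16.7 (1.01 ± 0.19, edgeR adjusted p = 0.00257), with no overlap. The microglia list gave 10 of 11 (5 without TN2, 6 without TN3, 4 with thinned counts). Lysosomal genes gave 12 of 21 (7 without TN2 or TN3, 18 without TN1, 3 with thinned counts), and phagocyte genes 12 of 20 (7 without TN2, 8 without TN3, 3 with thinned counts).

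Markers of other cells moved with the peripheral macrophage-rich spots as well. Astrocyte genes were higher in 7 of 8 tests, with a median of 1.67. Their summed level was even in TN1, with 1136 against 1143 CPM, and higher in TN2 (2694 against 961) and TN3 (5451 against 1209). Gfap, the filament of astrocytes that some glia of peripheral nerve also make, stood at 389, 1743 and 3730 CPM in TN1, TN2 and TN3 against 118, 316 and 533 (2.33 ± 0.19, edgeR adjusted p = 6.23e-05). Aqp4, the water channel of astrocytes, stood at 75.9, 127 and 279 CPM against 42.1, 37.2 and 53.2 (1.79 ± 0.22, edgeR adjusted p = 0.000191). Fibroblast and sheath genes were higher in 8 of 12 (5 without TN2), with summed levels of 14288, 24765 and 23874 CPM against 6045, 17061 and 17053, and all 12 sensory neuron genes were lower (4 of 12 with thinned counts). Oligodendrocyte genes were higher in 3 of 8 tests (median 0.68). Their summed levels, with Mobp and Mog included, were 556, 826 and 592 CPM against 394, 579 and 362. Satellite glia genes, Apoe among them, were higher in 4 of 7 (median 0.45). What part these other cells had in the peripheral differences was not tested.

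Of the 112 genes higher in central macrophage-rich spots, 107 were also among the 910 higher in peripheral ones, which is 95.5% of the first list and 11.8% of the second. The 2 comparisons share no spots but share the areas TN1, TN2 and TN3 and the rule.

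**Figure D3:**
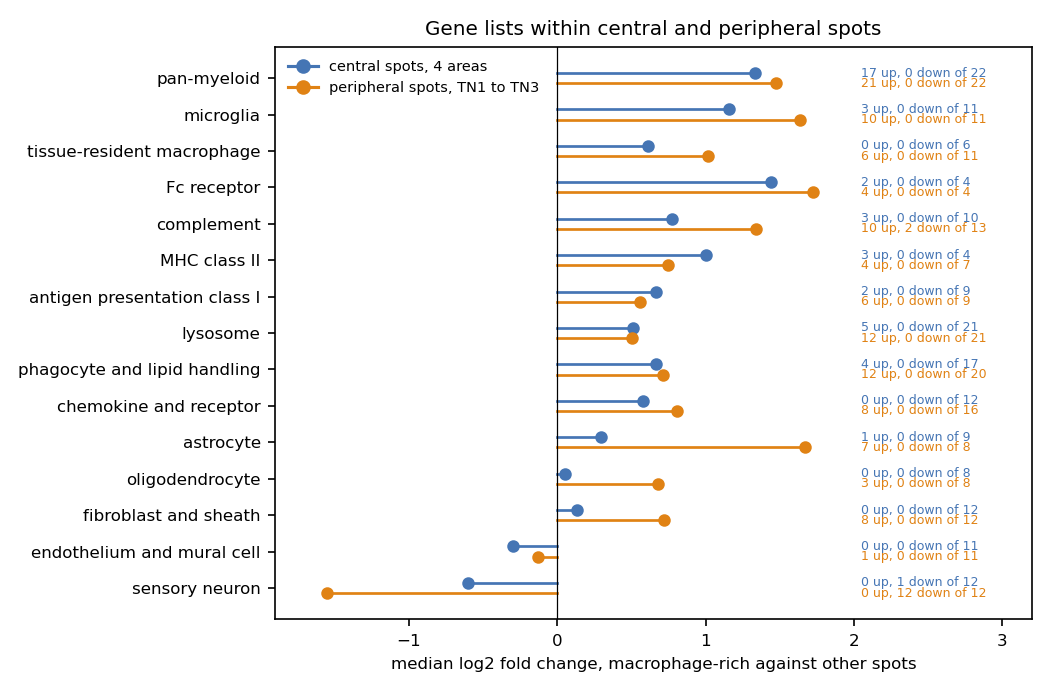
Median log2 fold change of macrophage-rich against other spots (horizontal axis) for 15 gene lists, within central spots (blue, 4 areas) and within peripheral spots (orange, 3 areas), with the number of genes called up or down of those tested. The pan-myeloid list has medians of 1.33 and 1.47, and the astrocyte list 0.29 and 1.67.

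The difference between the classes was compared directly between central and peripheral tissue with an interaction term over all 4 areas. Each area's central and peripheral spots were separate blocks (16 sums, 6 residual degrees of freedom). Its p-values thus treat the 2 tissues of an area as independent, although there were only 4 areas. The 8 peripheral macrophage-rich spots of HC, under the minimum of 10, were kept here and in the comparison of central with peripheral macrophage-rich spots. The interaction term called 0.181% of 11020 genes. Of these, 3 (0.0272%) had a higher and 17 (0.154%) a lower log2 fold change in central than in peripheral tissue. Of the pan-myeloid list 0 of 22 were called (median -0.31), of the microglia list 0 of 12 and of the resident macrophage list 0 of 10, so a difference between tissues was not shown for them. For Csf1r the interaction was -0.09 ± 0.27, which leaves room for a difference in either direction. Of the 20 genes called, 5 were on the astrocyte list, all with a lower log2 fold change in central tissue (5 of 9 tested). Aqp4 in central spots stood at 762, 924, 939 and 968 CPM in TN1, TN2, TN3 and HC when macrophage-rich and at 495, 856, 994 and 813 when not, so the classes overlapped there (interaction -1.85 ± 0.31, edgeR adjusted p = 0.0111). Gfap, Mlc1, Agt and Slc1a3 were the other 4. No gene was called without TN3 or without HC, with 16% of the spots, or with thinned counts.

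Central and peripheral macrophage-rich spots differed in their own levels. Of 7532 genes, 11.7% were called, 6.2% higher in central and 5.54% higher in peripheral spots. Of the microglia list 5 of 7 were higher in central spots and 1 lower, where 7 of 14 matched genes were tested. Of 14 matched resident macrophage genes 5 were tested, and these were higher in peripheral spots. Scarce members such as Siglec1, with 0, 9, 4 and 2 UMIs in the central sums, can pass the filter through the peripheral ones, so the count is only a description. Tmem119 stood at 43.6, 110, 114 and 64.0 CPM in the central macrophage-rich spots, area by area, against 16.1, 34.7, 54.3 and 38.6 in the peripheral ones (1.49 ± 0.25, edgeR adjusted p = 0.00056). Sall1, a transcription factor of microglia that other glia also express, stood at 45.3, 80.6, 69.8 and 72.6 CPM against 6.90, 10.4, 32.7 and 57.9 (2.03 ± 0.35, edgeR adjusted p = 0.000686). Both genes overlapped between the tissues across areas, and each was higher in central spots in all 4 areas, in HC against 2 and 3 peripheral UMIs. Olfml3, which was on the microglia list, ran the other way (-1.82 ± 0.31).

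Lyz2 stood at 161, 563, 646 and 154 CPM in the central macrophage-rich spots and at 1285, 2758, 2324 and 270 in the peripheral ones (-1.93 ± 0.30, edgeR adjusted p = 0.000293). Folr2, a folate receptor of resident macrophages, stood at 1.68, 21.0, 48.8 and 6.91 CPM against 39.1, 99.9, 80.2 and 19.3 (-1.58 ± 0.37, edgeR adjusted p = 0.00777). In the peripheral spots of HC, which held 51788 UMIs in all, 19.3 CPM is 1 UMI. Both genes were higher in peripheral spots in each area, Folr2 in HC on that 1 UMI. Pf4 stood at 8.39, 87.7, 30.2 and 6.91 CPM against 73.6, 223, 67.0 and 19.3, again with 1 UMI in the peripheral spots of HC. MHC class II genes were higher in peripheral spots in 3 of 4 tests. RT1-Da, a class II chain, stood at 42.0, 102, 167 and 25.9 CPM in central and 260, 225, 297 and 19.3 in peripheral spots (edgeR adjusted p = 0.0113), the other way round in HC on 1 UMI.

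C3 and Ctss were higher in the central macrophage-rich spots, by 1.37 ± 0.25 and 1.35 ± 0.25, in the 3 TN areas and not in HC, whereas C1r and C1s, the proteases of the C1 complex that connective tissue cells also make, were higher in the peripheral ones (-1.62 and -1.21), C1s again not in HC, where it had 1 peripheral UMI. Tyrobp (0.40 ± 0.23), Trem2 (0.28 ± 0.26) and Gpnmb (-0.42 ± 0.37) were not called. Oligodendrocyte genes were higher in central spots, which the split fixes. Astrocyte genes were higher there in 8 of 8 tests (median 1.76), while the fibroblast and sheath list was higher in peripheral spots in 9 of 12 (median -2.00) and the sensory neuron list in 4 of 11 (2 without HC, 6 of 12 without TN1, 1 without TN2). What part these cells had in the differences of the microglia, resident macrophage and MHC class II lists was not tested. Without HC the counts were 4 higher and 1 lower of 7 for microglia and 5 for resident macrophages. Without TN2 they were 2 and 1 of 7 and 3, without TN3 3 higher of 6 for microglia, and with thinned counts 1 for resident macrophages. The MHC class II count was 0 without TN2.

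**Figure D4:**
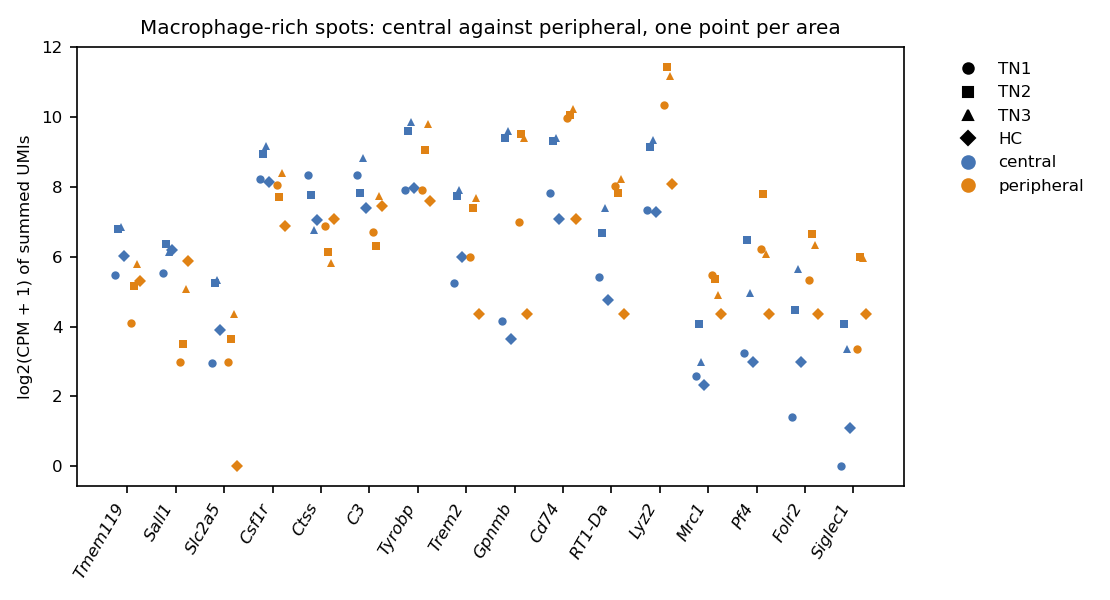
log2(CPM + 1) of 16 genes in the central (blue) and peripheral (orange) macrophage-rich spots, with 1 point per capture area. Tmem119 and Sall1 are higher in central spots and Lyz2 higher in peripheral spots in the 3 TN areas, and the peripheral points of HC rest on few UMIs.

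Among the macrophage-rich spots, 0 of 10188 genes were called between TN and HC with edgeR (0% of genes tested), where 1190 had an unadjusted p under 0.05. DESeq2 called 241, and edgeR called 1945 without TN1. Gpnmb stood at 63.4 CPM in TN1, 710 in TN2 and 683 in TN3, and 11.6 in HC (5.12 ± 1.68, edgeR adjusted p = 0.369), and at 5.64 ± 0.29 without TN1 (edgeR adjusted p = 0.000161). In central macrophage-rich spots alone it stood at 16.8, 675, 779 and 11.5 CPM, with TN1 and HC far below the other 2 areas. Cd68, a rule gene with no test, stood at 47.1, 242, 315 and 7.74 CPM.

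Lgals3, galectin-3, which phagocytes and injured neurons express, stood at 181, 1031, 1474 and 91.2 CPM in the macrophage-rich spots of TN1, TN2, TN3 and HC (3.04 ± 1.25, edgeR adjusted p = 0.443). Lyz2 (632, 2195, 2001 and 156 CPM) and Cd74 (551, 955, 1090 and 134 CPM) were higher in each TN area than in HC, with edgeR adjusted p = 0.316 and 0.301. Of all genes tested, 41.0% had a higher CPM in each TN area than in HC. In central macrophage-rich spots the gap to HC narrowed in each TN area for Lyz2 and Cd74. In TN1 it was there 161 against 154 CPM for Lyz2 and 223 against 134 for Cd74. Lgals3 had 55 of 595649 UMIs in the central macrophage-rich spots of TN1 and 158 of 1735642 in those of HC, so its levels there were close. Tmem119 (36.5, 53.4, 64.9 and 63.6 CPM) and Csf1r (284, 280, 375 and 270 CPM) had HC within or next to the range of TN. The 5 genes with the smallest p among those higher in TN were Lama2, Steap4, Dcn, Nr4a1 and Sema3b, and among those lower Cdkn1c, Jpt2, RT1-T24-4, Agpat4 and Wasf1. Dcn, decorin, a protein of connective tissue, stood at 1051, 1293, 1050 and 92.3 CPM, beside peripheral shares of the macrophage-rich spots of 34.1%, 45.5%, 68.1% and 5.0%.

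**Figure D5:**
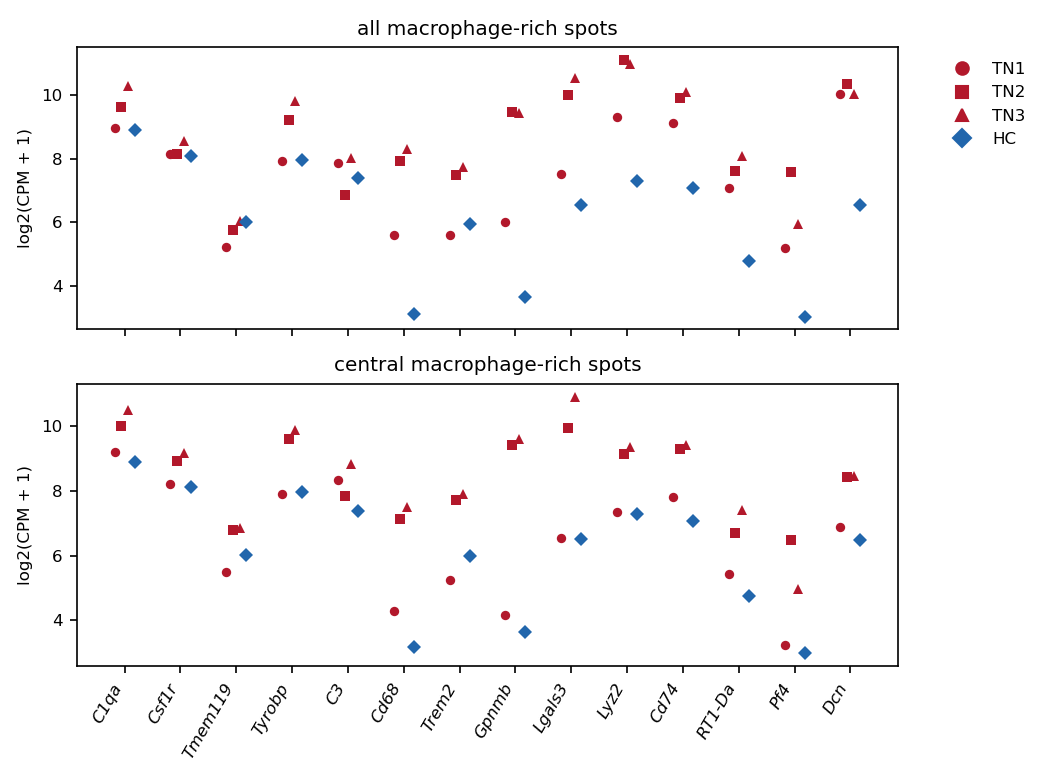
log2(CPM + 1) of 14 genes in the macrophage-rich spots of TN1, TN2, TN3 (red) and HC (blue), over all such spots (top) and over the central ones (bottom). For Gpnmb and Cd68, TN2 and TN3 lie above TN1, and TN1 above HC, in both panels.

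The difference between macrophage-rich and other spots was also compared between TN and HC. With 3.45% of 14233 genes called, 118 (0.829%) had a higher and 373 (2.62%) a lower log2 fold change in TN than in HC. Of the pan-myeloid list 5 of 22 had a lower one in TN (Csf1r, Tyrobp, Fcer1g, Itgb2 and Ctss), with a median of -0.79 against 0.00 for all genes. This count was 7 without TN1, 1 without TN2 and 9 without TN3. Csf1r stood at -1.11 ± 0.23 and Ctss at -2.06 ± 0.22, and in central spots alone Csf1r, Tyrobp, Fcer1g and Itgb2 changed sign. Of the Fc receptor list 2 of 4 had a lower fold change in TN (0 without TN2). Of the oligodendrocyte list 9 of 10 did, with Mobp and Mog, which define central spots, among them. Of the microglia list 3 of 13 did, among them Tmem119 (-1.72 ± 0.24) and Trem2 (-1.45 ± 0.24). Beside these stand the central shares given above, 91.9% in HC and 25% to 63.5% in TN. With macrophage-rich spots chosen within each tissue, or with central spots only, 0 genes were called by edgeR. Among central spots Tmem119 stood at 43.6 against 26.0 CPM in TN1, 110 against 37.6 in TN2, 114 against 65.4 in TN3 and 64.0 against 23.9 in HC.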

How the data were processed

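Visium gene expression was measured in 3 TN capture areas and 1 HC area. The authors processed the reads with Space Ranger (version 1.2.0 in the file header), with STAR also listed in their processing notes, and deposited raw UMI counts per gene and spot, with no normalization. Whether the areas were brought to equal depth when joined was not stated. Genome build and annotation were not given in the sources used here. Spots under 2000 UMIs were left out, and no doublet caller was run on spots. Barcodes mark array positions, so areas share them (52 occurred in all 4). UMIs were summed per area and class of spot, and CPM were taken of that sum. Sums were tested with edgeR 4.0.16 in R 4.3.3 (TMM, filterByExpr, glmQLFit, glmQLFTest), with calls at an adjusted p of 0.05. The capture area was a block, except between TN and HC, and except in the interaction of class with tissue, where each area and tissue together formed a block. The 4 rule genes got no test, and the 5 split genes none where the fit used the split. The code was tested on simulated data. Of 395 list entries, 375 matched a symbol.

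Alternatives were DESeq2 1.42.0 and its size factors, no filter on low counts, other thresholds for spots and tissue, ranking on thinned counts, leaving out each area, a choice within tissue and central spots only, the last added after seeing the data. Genes were named by a rule: the 10 largest rises and 5 largest falls among called genes on the same side in every area with a mean of 20 or more CPM in the higher class, and the 4 most abundant and all called members of each list. For TN against HC, the 5 smallest p in each direction were named. The members, lists and tests were chosen with earlier results of these data known. Motifs and stretches were chosen after seeing the data. The study's description, not the sample titles, gives 1 animal per TN area. The p-values measure the spread between 4 areas, or between TN1, TN2 and TN3 in the peripheral test and in both comparisons of TN with HC. Values of some list members are not reported here.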

Additional observations from a re-analysis of the deposited data

Results flagged for a closer look

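The difference between macrophage-rich and other spots differed between central and peripheral tissue for 20 genes by the interaction term. The named ones with a higher log2 fold change in central than in peripheral tissue were Carmil3 (log2 difference 1.76), Fam131b (1.32) and Sytl2 (1.28). All of these were lower in the peripheral macrophage-rich spots than in the other peripheral spots of each area. Those with a lower one in central tissue were Ccn2 (-2.17), Aqp4 (-1.85), Ntsr2 (-1.84), Slc7a11 (-1.83) and Gfap (-1.58), of which Aqp4 and Gfap are astrocyte genes.

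The same difference was tested between TN and HC, and 491 genes differed. The named ones with a higher log2 fold change in TN than in HC were Ltbp1 (9.77), C1qtnf2 (3.23), Thbs4 (2.81), Ifitm1 (2.74), Kit (2.51), Castor1 (2.45), Ada (2.41), Clmp (2.32), Nab2 (2.30) and Nes (2.28). A higher fold change can be a weaker fall, as for Clmp, which was lower in the macrophage-rich spots of every area. Ltbp1 had 21, 132, 205 and 0 UMIs in the macrophage-rich spots of TN1, TN2, TN3 and HC, so its fitted value depends on the prior count and is no bound. In the macrophage-rich spots of HC, C1qtnf2 had 2 UMIs, Castor1 5, Clmp 5, Kit 7 and Ada 8, so these values rest on few molecules of 1 area. Kit had 855 of 39524138 UMIs in the other spots of HC, so it was lower when macrophage-rich there, against slightly higher in each TN area. Those with a lower fold change in TN than in HC were Prl (-3.35), Pla2g3 (-2.61), Ciart (-2.60), B3gat1 (-2.60) and Slc5a11 (-2.46). With macrophage-rich spots chosen within each tissue 0 genes differed by edgeR.

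Spots under 2000 UMIs, which the main comparisons did not use, held RNA of the 4 rule genes in the TN areas. Their summed level was 82.7 CPM in the 9 such spots of TN1 (1 UMI), 873 CPM in 16 spots of TN2 (14 UMIs) and 793 CPM in 116 spots of TN3 (79 UMIs), against 0 of 2626 UMIs in 9 spots of HC. The difference was not tested.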

How the results depend on the processing

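HC is 1 area, the 4 areas differ in depth and tissue, and each spot mixes cells, which limits every comparison. Over all spots, 2377 genes were called, 1055 (without TN2) to 2519 (without HC) with 1 area left out. Without the area as a block 6 were called (4 higher, 2 lower), so the calls rest on comparing spots within an area. With DESeq2's size factors the split was 1105 higher and 1265 lower, against 885 and 1492.

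Within central tissue 151 genes were called, 60 (without TN3; 63 without HC) to 165 with 1 area left out, 607 with no filter on low counts, 287 with 4% and 0 with 16% of spots, 84 from 5000 UMIs, 50 with thinned counts and 81 with a stricter split. Within peripheral tissue 2234 were called, 1095 (without TN2; 1277 without TN3) to 2613 with 1 area left out, 1459 by DESeq2, 1449 with 4% of spots and 480 with thinned counts. For the difference between tissues the count of 20 became 0 (without TN3 or HC) to 80 (without TN2) with 1 area left out, 43 by DESeq2, 106 with no filter, 0 with 16% of spots, 0 with thinned counts, 50 without Cd68 and 67 with a stricter split. Between central and peripheral macrophage-rich spots 884 were called, 306 (without TN2) to 1083 with 1 area left out, 575 by DESeq2, 496 with 4% and 1334 with 16% of spots.

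Between TN and HC 0 genes were called, 0 to 1945 (without TN1) with 1 area left out and 241 by DESeq2. For the TN minus HC difference the count of 491 became 193 (without TN2) to 1200 (without TN1; 1065 without TN3) with 1 area left out, 276 by DESeq2, 923 with no filter, 44 with thinned counts, and 0 chosen within tissue or in central spots only. Without TN1, the spread in both comparisons of TN with HC came from TN2 and TN3 alone, so those counts depend on how alike these areas were. No paired analysis was possible because the HC label carries no number that would match a TN area. The central share in TN2 was 66.0% with 4% of spots and 35.4% with thinned counts, and in HC 81.9% with thinned counts.

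Single genes changed sign as follows, and the cause was not tested. With thinned counts RatNP-3b in central tissue was 1.34, and Bglap and Ibsp in peripheral tissue 0.0865 and 0.48. With 16% of spots Cga, Gh1 and Prl in peripheral tissue were 0.0141, 0.192 and 0.186. In the TN minus HC difference, chosen within tissue, Aldh1l1 was 0.0181, Clmp -0.041, Itgb2 0.185 and Nab2 -0.00948. In central spots only, C3 was 0.084, Csf1r 0.222, Fcer1g 0.218, Fcgr2a 0.0349, Fth1 0.308, Itgb2 0.516, Prl 0.741, Tyrobp 0.484 and Vcan 0.0346.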
